A study of Mus musculus with 2 samples.

Results

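The genes described here build and fill the lysosome, the acidic compartment in which cells digest what they take up. They are 34 of the 55536 annotated genes in the deposited tables, of which 22028 are protein-coding, and they were taken by symbol from a fixed list. The list holds 16 genes of the V-ATPase and its accessory proteins, 4 genes of lysosomal membrane proteins and 14 genes of hydrolases and other luminal proteins. All 34 symbols matched a single gene each, and all 34 passed the filter on low counts (filterByExpr).

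RNA was measured by ribosome-depleted total RNA sequencing of the nucleoplasmic part of bone marrow-derived macrophages, which are grown in culture from marrow precursors of C57BL/6J mice. All cells had received 100 ng/ml of Lipid A, the Toll-like receptor 4 ligand within bacterial lipopolysaccharide, for 12 h, had then spent 12 h after its removal, and were collected at 0 min of the next stimulation. This single group has 2 libraries, biological replicates 1 and 2, from separate biosamples under the same donor label, with age and sex not recorded. With no other group there was no comparison between conditions and no test, and every value below is a level in nuclear RNA, given per library. Replicate 1 started from 1 µg of RNA and replicate 2 from 500 ng, so a difference between libraries and a difference in input cannot be told apart.

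The V-ATPase is a rotary pump that spends ATP in its cytosolic V1 sector to drive protons through its membrane V0 sector, and so acidifies the lysosome. Hydrolases of the lumen work at that acidic pH on proteins, lipids and sugar chains, while membrane proteins such as the LAMPs line the compartment and carry ions and other solutes across it. Macrophages depend on this system to digest engulfed particles, and transcription factors of the MiT-TFE family bind E-boxes with the letters CACGTG near many of its genes.

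The expected counts of replicates 1 and 2 summed to 22907877 and 18612405, and the 34 genes held 2.26% and 1.72% of them. All 8 macrophage markers examined stood at 10 or more TPM (a level scaled for transcript length and to a common library total) in both libraries, from Lyz2, the macrophage lysozyme, at 1368 and 1126 TPM down to Cd14, a co-receptor for lipopolysaccharide, at 37.9 and 36.6 TPM. Osteoclasts, macrophage relatives that use the same pump on bone, were represented by 6 markers: 5 were under 1 TPM in both libraries, 2 of them at 0, and Nfatc1 had 11.8 and 9.62 TPM. The summed level of the 6 was 11.9 and 9.89 TPM. Of the other lists, markers under 1 TPM in both libraries were 7 of 7 for neutrophils, 5 of 5 for B and T cells, 3 of 3 for mast cells, 4 of 4 for stromal cells, 4 of 5 for dendritic cells (Batf3 had 6.99 and 2.43 TPM) and 3 of 4 for erythroid cells (Alas2 had 2.13 and 4.66 TPM). Malat1, a long RNA kept in the nucleus, had 19257 and 26338 TPM. The rise of Malat1 was in TPM only. Its expected counts were 2560692 and 1903922, a log2 ratio of replicate 2 over replicate 1 of -0.17 after the scaling described below. The further long nuclear RNAs examined were Neat1 at 952 and 798 TPM, Xist at 158 and 164 TPM and Kcnq1ot1 at 3.56 and 5.2 TPM.

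The promoters of some members carry the E-box that MiT-TFE proteins recognise. Of the 34 genes, 28 had an entry in the RefSeq promoter table (GRCm38.p6, the same primary assembly as mm10), which runs from 250 bases before each transcript start to 50 bases from it. Asah1, Atp6v0d2, Atp6v1b2, Atp6v1c1, Atp6v1g1 and Atp6v1h had none. The letters CACGTG, which read the same on both strands, stood in a promoter of 9 of the 28 genes (32.1%), against 2187 of all 27025 genes of the table (8.09%). The symmetric longer form TCACGTGA, which contains CACGTG, stood in 4 of the 28 (Mcoln1, Atp6v0d1, Atp6v1a and Atp6v0e, 14.3%), against 304 of the 27025 (1.12%). Among protein-coding genes at 10 or more TPM in both libraries, the closer counterpart in level, the shares were 12.7% for CACGTG and 3.02% for TCACGTGA, over 3479 genes. These shares describe letters in a window and do not show that a factor bound there.

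**Figure D1:**
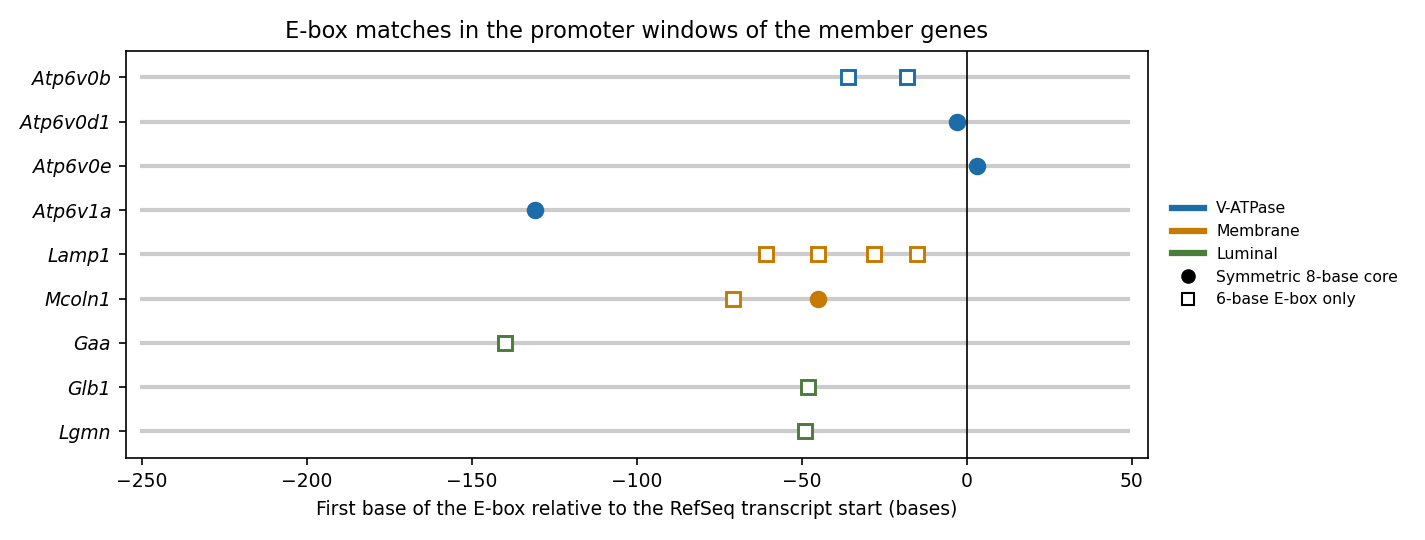
Position of each CACGTG match in the RefSeq promoter windows of the 9 member genes that have one, in bases from the transcript start (0), with each window drawn in grey. Filled circles are matches inside TCACGTGA and open squares the 6-base form only; Lamp1 has 4 matches before its start, and Atp6v0b and Mcoln1 have 2 each.

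Lamp1, which encodes a major glycoprotein of the lysosomal membrane, had 4 matches in a row before its start, at bases -61, -45, -28 and -15, spaced 16, 17 and 13 bases apart. Only 6 of the 27025 genes had 4 or more in a promoter window, and 4 of these were among the 3479 protein-coding genes at 10 or more TPM. Having 2 or more was seen for 3 of the 28 members (10.7%), for 0.681% of all genes and for 1.78% of those 3479 genes. The stretches below show this array and the other multiple or symmetric matches, plus Glb1 as an example of a hydrolase gene with a lone match. Each is written 5′ to 3′ on the strand of its gene, with CACGTG in capitals. Lamp1 is at chr8:13159086-13159160 (plus strand), Mcoln1 at chr8:3500434-3500493 (plus), Atp6v0b at chr4:117887330-117887379 (minus), Atp6v0d1 at chr8:105566056-105566081 (minus), Atp6v0e at chr17:26676385-26676410 (plus), Atp6v1a at chr16:44139371-44139404 (minus) and Glb1 at chr9:114401016-114401049 (plus).
Lamp1: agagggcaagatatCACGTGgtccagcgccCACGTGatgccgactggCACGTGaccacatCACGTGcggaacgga
Mcoln1: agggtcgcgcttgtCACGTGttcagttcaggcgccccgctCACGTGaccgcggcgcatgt
Atp6v0b: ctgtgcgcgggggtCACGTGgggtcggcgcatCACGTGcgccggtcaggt
Atp6v0d1: ggccctactgcggtCACGTGagacgc
Atp6v0e: tttagcgcgccgatCACGTGagcctc
Atp6v1a: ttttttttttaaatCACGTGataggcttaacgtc
Glb1: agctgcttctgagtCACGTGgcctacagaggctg

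By class, the matches lay in 4 of 11 V-ATPase genes with an entry, 2 of 4 membrane protein genes and 3 of 13 luminal genes (Glb1, Gaa and Lgmn). None of the 13 luminal genes had the symmetric form, which was in 3 of the 11 V-ATPase genes and 1 of the 4 membrane genes. In Atp6v0d1 and Atp6v0e the match lay at the start itself, at bases -3 and 3. It lay at base -131 in Atp6v1a and at base -140 in Gaa. The RefSeq start lies 13165 bases inside the GENCODE gene for Atp6v0e, 721 for Lgmn and 446 for Atp6v1a. For Atp6v0e this start is close to those of the coding transcripts Atp6v0e-201 and Atp6v0e-202, at bases 26676370 and 26676412 of chromosome 17.

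The lysosomal genes stood high in nuclear RNA. Of the 34, 32 had 10 or more TPM in both libraries, beside 19.7% of all protein-coding genes, and 12 had 100 or more, beside 1.24%. Their median was 66 TPM in replicate 1 and 62.3 TPM in replicate 2, where protein-coding genes at 1 or more TPM in both libraries had medians of 9.34 and 9.07 TPM. The classes differed in level: the median on the log2(TPM + 0.1) scale was 5.34 ± 0.01 for the V-ATPase, 7.35 ± 0.11 for membrane proteins and 6.28 ± 0.30 for luminal proteins (SD, n = 2 libraries). Members of each class were spread widely around these medians, and the classes overlapped. In the second quantification, a deposited table made straight from the reads, 31 of the 34 reached 10 TPM in both libraries, beside 3087 of the 22028 protein-coding genes. There only 4 of the 34 reached 100 TPM in both, beside 132 protein-coding genes. The order of the class medians was the same, at 4.58, 6.22 and 5.33.

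**Figure D2:**
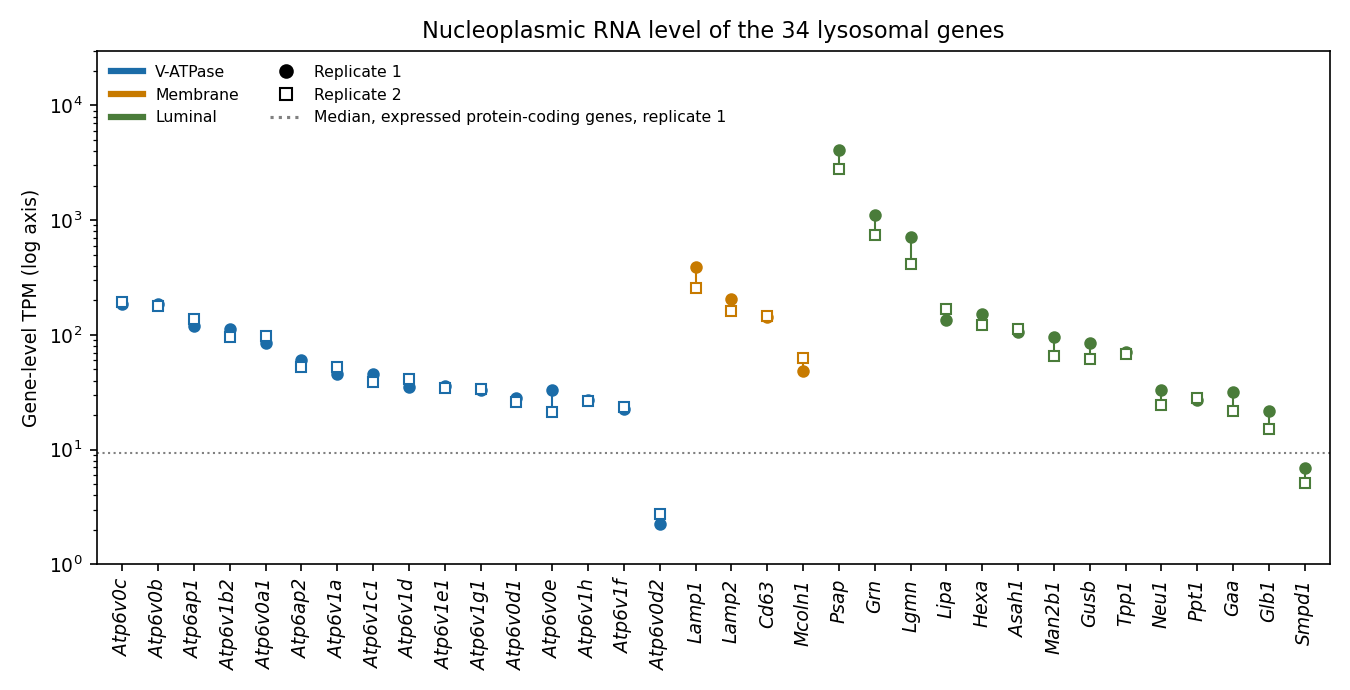
Gene-level TPM of each of the 34 genes (log axis), by class and in falling order within it; filled circles are replicate 1 and open squares replicate 2, and the dotted line is the median of protein-coding genes at 1 or more TPM, 9.34 TPM in replicate 1. Psap, Grn and Lgmn stand above all other members, and only Atp6v0d2 and Smpd1 lie below the line.

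Within V0, genes of the proton-conducting ring had the highest levels of nuclear RNA among the V-ATPase members. Atp6v0c, which encodes the ring's c subunit (ENSMUSG00000024121.13, mm10 chromosome 17, 24163866 to 24169702, minus strand), stood at 185 and 195 TPM in replicates 1 and 2. Atp6v0b, which encodes the related c'' subunit (chromosome 4, 117884326 to 117887333, minus strand), had 185 and 179 TPM. The total levels of the 2 genes were therefore nearly equal in both libraries, with ratios of c to c'' of 1 and 1.09. These totals include noncoding transcripts. Coding transcripts held 83.9% and 85.5% of the transcript TPM of Atp6v0c, but 74.7% and 54.6% of that of Atp6v0b. In the second quantification the order was the reverse, at 58.1% and 54.1% for Atp6v0c and 76.3% and 62.4% for Atp6v0b. Which gene had the larger coding share therefore depended on the quantification.

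The a subunit forms the path by which protons enter and leave the ring and steers the pump to a compartment. Most of its nuclear RNA came from a gene outside the list. Atp6v0a1 had 85.1 and 98.9 TPM, while Tcirg1, which encodes the a3 isoform of lysosomes and osteoclasts, had 525 and 451 TPM. Tcirg1 gave 83.8% and 80.2% of the summed level of the 4 a-subunit genes, Atp6v0a1 13.6% and 17.6%, and Atp6v0a2 2.61% and 2.19%, and Atp6v0a4 was listed at 0. The same order held in the second quantification, where Tcirg1 gave 83% and 78.5%.

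The d subunit, which joins the ring to the V1 rotor, is the only position for which the list holds both isoforms. Atp6v0d1, the widely expressed isoform (chromosome 8, 105524465 to 105566047, minus strand), had 28.3 and 26 TPM. Atp6v0d2, the isoform known from osteoclasts and kidney (chromosome 4, 19876841 to 19922605, minus strand), had 2.26 and 2.74 TPM from 151 and 156 expected counts, the lowest level of all 34 genes. Atp6v0d1 was 12.5 and 9.5 times Atp6v0d2, a log2 difference of 3.40 ± 0.27 (SD, n = 2, on the log2(TPM + 0.1) scale), and the libraries did not overlap. Atp6v0d2 thus made 7.39% and 9.52% of the d-subunit level. Atp6v0e, the small e subunit, had 33.1 and 21.3 TPM, with the other e gene, Atp6v0e2, at 0.06 and 0 TPM.

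In V1, the A and B subunits form the ring that binds ATP. Atp6v1b2, the B2 isoform, had 112 and 95.3 TPM, and Atp6v1a, the catalytic A subunit, had 45.9 and 52.6 TPM. Although the assembled pump holds equal numbers of A and B, the nuclear RNA ratio of A to B was 0.411 and 0.552. These totals again include noncoding transcripts, which weighed more in Atp6v1b2. Coding transcripts held 87.1% and 88% of the transcript TPM of Atp6v1a, but 59.2% and 62.6% of that of Atp6v1b2. In the second quantification these shares were 83.3% and 84.9% for Atp6v1a and 43.6% and 45.8% for Atp6v1b2. On coding transcripts alone the 2 genes were therefore closer. Atp6v1b2 made 99.8% and 99.6% of the B-subunit level, its kidney counterpart Atp6v1b1 being at 0.25 and 0.34 TPM.

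The stalks of V1 stood lower and close together. Among the peripheral stalk genes, Atp6v1c1 had 45.9 and 39.2 TPM, Atp6v1e1 had 35.8 and 34.3 TPM, and Atp6v1g1 had 33.2 and 33.7 TPM. The regulatory H subunit gene Atp6v1h had 26.9 and 26.5 TPM. Of the rotor genes, Atp6v1d had 35.3 and 41.4 TPM, and Atp6v1f had 22.7 and 23.5 TPM, the lowest in V1. Atp6v1c1 and Atp6v1e1 made nearly all of the nuclear RNA for their subunits, at 99.9% or more of the level in both libraries. In the second quantification Atp6v1c1 made 99.8% and 99.6%. Atp6v1g1 made 91% and 90.3% of the G level in the gene-level tables, with Atp6v1g2, known from neurons, making 9% and 9.65%, but in the second quantification Atp6v1g2 made 22.1% and 23.4%.

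The accessory proteins complete the class. Atp6ap1, also called Ac45, a V0-associated glycoprotein, had 119 and 137 TPM. Atp6ap2, the prorenin receptor, had 60.9 and 52.8 TPM. Genes that assist the assembly of the pump were all detected at 1 or more TPM, and 4 of 7 reached 10 TPM in both libraries, from Dmxl1 at 41.9 and 47.8 TPM and Wdr7 at 23.7 and 21.7 TPM to Rogdi at 3.26 and 5.5 TPM. Of the 9 V-ATPase genes outside the list, 2 reached 10 TPM in both (Tcirg1 and Atp6v0a2), and 3, among them Atp6v1e2, were listed at 0 in both.

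Among the membrane proteins, both LAMP genes stood highest. Lamp1 (ENSMUSG00000031447.7, chromosome 8, 13159161 to 13175338, plus strand) reached 390 TPM in replicate 1 and 258 in replicate 2. Lamp2, whose splice forms serve membrane protection and chaperone-mediated autophagy (chromosome X, 38401357 to 38456454, minus strand), had 207 and 163 TPM. Lamp1 was higher in both libraries, at 1.88 and 1.59 times Lamp2.

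Cd63, a tetraspanin of late endosomes and lysosomes (chromosome 10, 128900989 to 128912822, plus strand), had 142 and 146 TPM. Mcoln1, the TRPML1 channel that lets calcium out of the lysosome (chromosome 8, 3500457 to 3515232, plus strand), had 48.2 and 62.4 TPM, the lowest of the class in both libraries. Of 19 further lysosomal membrane genes, 17 reached 10 TPM in both libraries. The highest were Laptm5, an immune-cell lysosomal protein, at 207 and 179 TPM and Cd68, a macrophage scavenger glycoprotein, at 187 and 127 TPM. The lowest was Mfsd8, a lysosomal transporter, at 7.16 and 7.72 TPM.

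The highest levels in the luminal class were those of Psap and Grn, which encode no hydrolase, followed by the protease gene Lgmn. Psap encodes prosaposin, the precursor of the saposins that present sphingolipids to their enzymes (ENSMUSG00000004207.14, chromosome 10, 60277627 to 60302597, plus strand). Its level was 4129 TPM in replicate 1 and 2807 in replicate 2, and it ranked 6 by mean TPM among all 22028 protein-coding genes. Psap alone gave 48.2% and 44.2% of the summed TPM of the 34 genes, and 1.25% and 0.884% of all expected counts of the libraries. Grn, which encodes progranulin, a secreted and lysosomal glycoprotein carried to lysosomes with prosaposin (chromosome 11, 102430315 to 102437048, plus strand), ranked 21, at 1119 and 744 TPM. Psap exceeded Grn by nearly the same factor in both libraries, 3.69 and 3.77. Lgmn, the asparaginyl endopeptidase legumain (chromosome 12, 102394084 to 102439813, minus strand), ranked 38, at 712 and 412 TPM.

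These 3 genes were above every other member in both libraries. Lipa, the acid lipase that frees cholesterol from its esters, had 135 and 167 TPM. Hexa, the alpha subunit of beta-hexosaminidase, had 153 and 123 TPM. Asah1, acid ceramidase, had 106 and 112 TPM, and its substrate ceramide is made in lysosomes by acid sphingomyelinase, whose gene Smpd1 was the lowest of the class at 6.92 and 5.11 TPM.

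The remaining glycan-cutting enzymes ranged over less than an order of magnitude. Man2b1, alpha-mannosidase, had 95.5 and 65.6 TPM, and Gusb, beta-glucuronidase, had 84.4 and 62.1 TPM. Neu1, the lysosomal sialidase, had 32.8 and 24.6 TPM, Gaa, the glycogen-cutting alpha-glucosidase, had 31.9 and 21.8 TPM, and Glb1, beta-galactosidase, had 21.6 and 15.2 TPM. All 5 were higher in replicate 1 in the gene-level tables. In the TPM of the second quantification only Gaa was, at 18.8 and 17.5 TPM. There Man2b1 had 39.5 and 41.6, Gusb 35.5 and 39.1, Neu1 13.5 and 13.9, and Glb1 8.43 and 8.82 TPM. Glb1 overlaps Tmppe on the same strand over 6172 bases, and Tmppe held 680 and 492 expected counts, so the level of Glb1 is uncertain.

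Both members whose loss causes infantile or late-infantile neuronal ceroid lipofuscinosis varied little in the gene-level tables. Tpp1, tripeptidyl peptidase, had 71.1 and 68.8 TPM, and Ppt1, which removes palmitate from proteins, had 27.3 and 28.5 TPM. In the second quantification Tpp1 had 35.8 and 43.9 TPM and Ppt1 12.1 and 17.3 TPM. After the scaling described below, the log2 ratio was 0.11 for each gene, and 0.09 for each in the second quantification. Ppt1 overlaps Cap1 on the other strand over 129 bases, and the use of strand in counting is not given in the sources used here. Over the 34 genes in order of mean TPM, the libraries of 20 of 33 neighbouring pairs overlapped, so the order within most of the range is not resolved by the replicates.

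Many lysosomal genes beyond the list were also high. Of 31 other lysosomal hydrolases, 24 reached 10 TPM in both libraries, and their summed level of 7052 and 4917 TPM was near that of the 14 luminal members, 6725 and 4657 TPM. The highest were Ctsd and Ctsb, cathepsins D and B, at 1695 and 1315 TPM and at 1775 and 1203 TPM. Ctsk, the bone-resorbing cathepsin of osteoclasts, was the lowest at 0.97 and 0.53 TPM. Of 7 genes for mannose 6-phosphate tagging and sorting of hydrolases, 5 reached 10 TPM in both, led by the receptor M6pr at 77.6 and 80.2 TPM and Sumf1, which activates sulfatases, at 39.6 and 31.9 TPM, with the sorting receptor Sort1 lowest at 1.31 and 2.03 TPM.

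Of 14 genes for MiT-TFE factors and the docking of mTORC1 on the lysosome, 9 reached 10 TPM in both libraries. Rragc, a Rag GTPase, had 46 and 37.3 TPM, Fnip1, a folliculin partner, had 36 and 35.6 TPM, and Rragd had 6.9 and 5.69 TPM. The 4 factors themselves were added to the named genes for their role: Mitf had 29.1 and 24.9 TPM, Tfe3 27.8 and 31.1 TPM, Tfec 19.3 and 37.1 TPM, and Tfeb 17.4 and 9.91 TPM. Tfec was higher in replicate 2 and Tfeb in replicate 1, in the second quantification as well.

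The replicates were then set against each other to see how far the levels repeat. Counts were scaled by TMM, which centres the bulk of genes, and ratios are log2 of replicate 2 over replicate 1 with an exact 95% interval for counting error alone. None of the 34 genes was apart by 1 or more on this scale with a mean count of at least 100, beside 204 of 10198 genes (2.00%). The median over the 34 was -0.08, and 18 of them were lower in replicate 2, beside 50.5% of protein-coding genes.

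The classes did not move together. The V-ATPase members had a median log2 ratio of 0.07, with 6 of 16 lower in replicate 2, and the luminal members had a median of -0.40, with 10 of 14 lower. For these 10 luminal genes the counting intervals lay wholly below 0, and for the other 4, Lipa, Tpp1, Ppt1 and Asah1, wholly above it. Of the 16 V-ATPase genes, 4 intervals lay below 0, 5 above, and 7 included it. These numbers depend on the counts as well as on the size of the ratio. Asah1 and Atp6v1f both had a ratio of 0.08. The interval was 0.03 to 0.13 for Asah1, from 6833 and 6040 expected counts. It was -0.16 to 0.32 for Atp6v1f, from 312 and 276. The share of all genes with an interval that excludes 0 was not computed. The 4 membrane genes divided evenly, with Lamp1 and Lamp2 lower in replicate 2 and Cd63 and Mcoln1 higher. The second quantification gave the same counts, beside 55.4% of protein-coding genes lower in replicate 2, with class medians of 0.09 for the V-ATPase, -0.16 for membrane proteins and -0.35 for luminal proteins. On its TPM, without TMM scaling, the class medians were higher in replicate 2, at 20.2 and 28.2 TPM for the V-ATPase and 37.7 and 42.7 TPM for luminal proteins, so the luminal median differed by less. Of the 3 highest genes, Lgmn had 286 and 239 TPM there, Psap 1542 and 1492 TPM, and Grn 461 and 488 TPM. Protein-coding genes took 15% and 21.2% of its TPM in replicates 1 and 2, against 27.5% and 29.5% in the gene-level tables.

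**Figure D3:**
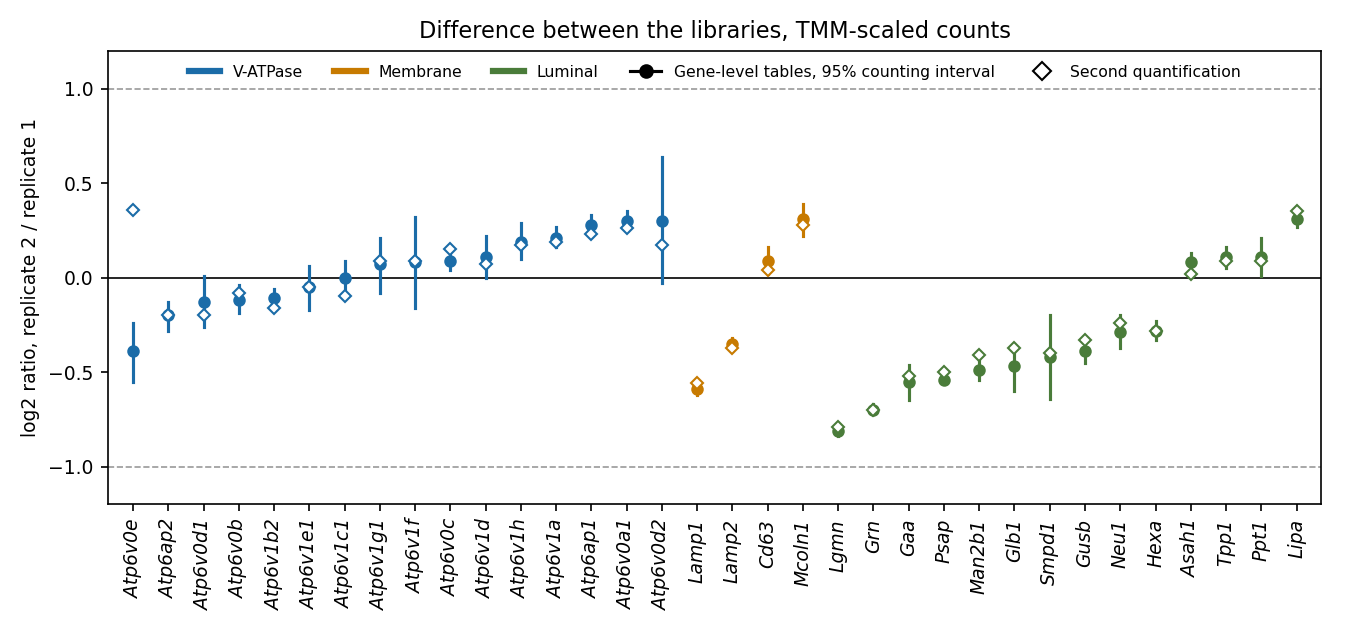
Log2 ratio of replicate 2 over replicate 1 for each of the 34 genes after TMM scaling, by class; circles with bars are the gene-level tables with the 95% counting interval, open diamonds the second quantification, and dashed lines mark a ratio of 1 either way. Lgmn at -0.81 is the lowest, 10 of 14 luminal genes lie below 0, and Atp6v0e is the gene on which the 2 quantifications part.

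The largest shifts were in luminal genes and Lamp1. Lgmn had 34426 and 16451 expected counts, a log2 ratio of -0.81 (interval -0.84 to -0.78), and Grn had 53633 and 27749, a ratio of -0.70 (-0.72 to -0.67). Lamp1 followed at -0.59 (-0.62 to -0.56), Gaa at -0.55 (-0.65 to -0.46) and Psap at -0.54 (-0.55 to -0.53). These were the 5 members beyond 0.5 in either direction, all lower in replicate 2. Over all 14892 genes past the filter the SD of the ratio was 0.47, and 21.7% lay beyond 0.5. The highest ratios among the 34 were those of Lipa and Mcoln1, both 0.31, so members of 1 class lay at both ends of the range.

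The other lists are given beside the 50.5% of protein-coding genes that were lower in replicate 2. The 31 further hydrolases had a median log2 ratio of -0.39, with 29 lower, including Ctsb at -0.39 and Ctsd at -0.34. Of the 14 genes for MiT-TFE factors and mTORC1 docking 12 were lower (median -0.16), of the 19 further membrane genes 14 (-0.13), and of the 7 mannose 6-phosphate sorting genes 5 (-0.14). Of the 7 V-ATPase assembly genes only 1 was lower, with a median of 0.19. All 8 macrophage markers were also lower in replicate 2, with a median of -0.30 and a summed level of 3387 and 2783 TPM. The part of these shifts, and of the starting RNA amount, in the difference between the libraries was not tested. In bulk RNA, fewer cells of a type and less RNA per cell cannot be told apart.

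In 2 genes the quantifications gave different signs. For Atp6v0e the ratio was -0.39 (interval -0.55 to -0.24) from the gene-level tables and 0.36 from the second quantification, and for Atp6v1c1 it was 0.00 (-0.08 to 0.09) and -0.10. Atp6v0e reads were also divided differently among its coding transcripts. Atp6v0e-201 held 81.3% and 69% of the gene's transcript TPM in the first set of tables and 51.8% and 26.3% in the second quantification.

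Nuclear RNA includes transcripts that still hold introns, and the annotation lists retained-intron transcripts, which keep an intron and carry no annotated protein, for 23 of the 34 genes. Summed as a share of all transcript TPM of the gene, they had a median of 16.7% in replicate 1 and 24.9% in replicate 2 over these 23 genes, 20.8 ± 5.82% (SD, n = 2). Over 6143 protein-coding genes at 1 or more TPM with such a transcript, the medians were 29.2% and 30.7%. The median was 28.2% and 29.7% for 10 V-ATPase genes, 5.18% and 7.94% for 4 membrane genes, and 11% and 31.9% for 9 luminal genes. The luminal difference was smaller on the other scales, with medians of 18.3% and 27.9% in the second quantification and 14.3% and 17.6% as a share of expected counts, where long transcripts weigh more.

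Atp6v1d and Atp6v1h had the highest mean shares of the 23 genes. Atp6v1d had 67.5% in both libraries, most of it in Atp6v1d-202, and Atp6v1h had 54.8% and 63.7%. On this scale 2 of the 23 members were above 50% in both libraries, beside 15.4% of the 6143 genes. In the second quantification Atp6v1d again had 58.4% and 64.2%, but Atp6v1h had 47.7% and 47.8%, and Atp6v1b2, Neu1 and Tpp1 joined Atp6v1d above 50% (4 of 23, beside 22.8%). As a share of expected counts, Atp6v1d had only 25.7% and 29.9%, and the genes above 50% in both libraries were Atp6v1h at 70.5% and 78.1%, Neu1 at 59.4% and 76.7% and Mcoln1 at 55.9% and 58.1% (3 of 23, beside 12.8%). Which members were mostly in retained-intron forms therefore depended on the scale.

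Mcoln1 stood apart from the other membrane genes, with 53.4% and 47% of its transcript TPM in retained-intron forms. Lamp2 had 6.17% and 9.78%, Lamp1 4.18% and 6.09%, and Cd63 1.71% and 1.84%. The 3 more abundant genes of the class were thus below 10% in both libraries, in the second quantification as well.

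Some genes differed widely between the libraries. Among V-ATPase genes, Atp6v0b had 25.3% and 45.4%, and 23.7% and 37.6% in the second quantification. Among luminal genes, Neu1 had 49.2% in replicate 1 and 68.6% in replicate 2, Asah1 had 25.7% and 51.6%, and Grn had 10.2% and 32.1%. In Grn the difference lay in Grn-208, a short retained-intron transcript within the gene (chromosome 11, 102433932 to 102434593), at 1.47% and 21.4%, and Grn-203, a short coding transcript, at 18.1% and 0.904%. Smpd1 had 4.2% and 18%, and Man2b1 had 20.7% and 31.9%. The remaining luminal genes differed less: Gusb had 11% and 13.3%, Tpp1 47.2% and 46.4%, Lipa 10.7% and 10.5%, and Lgmn 1.97% and 3.19%. In the second quantification Lgmn had 5.64% and 10.6%.

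Of the 23 genes, 16 had a higher share in replicate 2, beside 54.7% of the 6143 genes. In the second quantification the number was 13 of 23, beside 54.5%, and as a share of expected counts 19 of 23, beside 57.4%. In all, 13 genes were higher in replicate 2 in both quantifications, but the matching joint share of the 6143 genes was not computed. Counted as a share of expected counts, the medians over the 23 genes were 14.3% and 15.3%, and Grn had 2.92% and 6.94%, a smaller difference than in TPM, since Grn-208 is short.

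**Figure D4:**
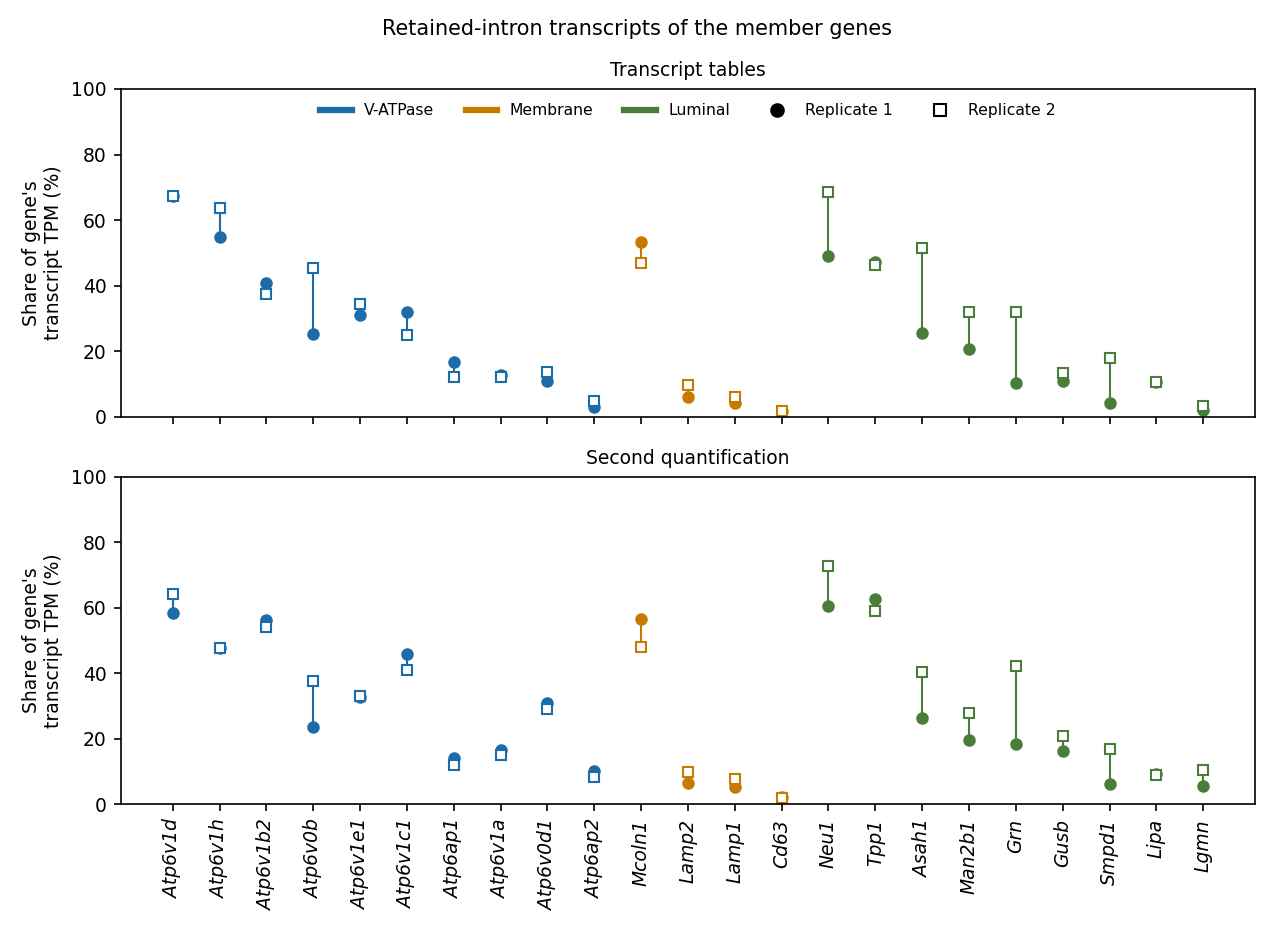
Retained-intron transcripts as a share of the transcript TPM of each gene, for the 23 member genes that have one, in the transcript tables (top) and the second quantification (bottom); filled circles are replicate 1 and open squares replicate 2. Atp6v1d is above 50% in both panels, Lamp1, Lamp2 and Cd63 are below 10%, and Grn and Asah1 are higher in replicate 2 in both panels.

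Coding transcripts also divided unevenly. For Lgmn, Lgmn-201, which starts at the upstream end of the gene, held 54.9% of transcript TPM in replicate 1 and 26.5% in replicate 2, and Lgmn-202, which starts further in, 43.2% and 70.4%. For Psap, Psap-202 held 60.3% and 47%, and Psap-203, which begins further into the gene, 37.1% and 49.6%. In both genes the form that starts further in held the larger share in replicate 2, and the second quantification gave the same direction, with Lgmn-202 at 30.8% and 57.9% and Psap-203 at 34.6% and 48.5%. Lamp2 held its balance, with Lamp2-202 at 52.3% and 48% and Lamp2-201 at 28.9% and 29.9%. Hexa and Atp6v1g1 have 1 annotated transcript each and show no such division.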

How the data were processed

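The authors deposited, for each of the 2 libraries, a gene-level and a transcript-level table with an expected count and a TPM, and a further transcript-level table (the second quantification) with an estimated count and a TPM. The first 2 come, per the notes deposited with the files, from alignments to the transcriptome and the last from the reads, on mm10 with GENCODE mouse release 21. Which programs were used, and whether counting used strand, is not given in the sources used here.

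Estimated counts and TPM of the second quantification were summed per gene. The 26345 entries that name no annotated gene (1.01% and 0.336% of expected counts) stayed out of library sizes. Expected counts were rounded, and log2 ratios used TMM factors from edgeR 4.0.16 (R 4.3.3) estimated on the 14892 genes that passed filterByExpr and a prior count of 0.5. With 1 library on each side no p-value was computed, and counting intervals are exact Clopper-Pearson 95% intervals, which cover counting error only. On simulated counts the script returned the known ratios. Levels used log2(TPM + 0.1). The posterior SD of the gene counts was 0 in both libraries for 26 members and at most 3.03 counts. Alternatives were DESeq2 1.42.0 size factors, library totals, another pseudocount, TPM minimum or mean count, no filter, rescaled TPM, the second quantification and each library alone. Promoters were read from the RefSeq table and searched with Python 3.11.15.

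The members and lists were chosen with earlier results of these data known. Beside the 34 members, the naming rule took the 2 highest and the lowest gene of each pathway list, the highest of each other cell type, the highest and lowest macrophage marker, and the 4 MiT-TFE factors were added. All 4 long nuclear RNAs of the list were named.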

Additional observations from a re-analysis of the deposited data

How the results depend on the processing

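With 2 libraries of 1 group, precision rests on n = 2. The counting interval of the ratio included 0 for 7 V-ATPase members and no other. Intervals widen at low counts, and these members included Atp6v0d2 with 151 and 156 expected counts and Atp6v1f with 312 and 276. Median log2 levels depended on the scale of TPM. For the V-ATPase the median moved from 5.34 to 5.37 with a pseudocount of 1, to 4.58 in the second quantification and to 7.15 when TPM was rescaled over protein-coding genes. For membrane proteins the second quantification gave 6.22 and the rescaling 9.16, and for luminal proteins 5.33 and 8.09. The order of the classes was the same each time. Leaving out each library in turn gave 5.34 and 5.34, 7.27 to 7.43 and 6.07 to 6.49 for these classes.

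The count of members at 10 or more TPM was 31 to 33 under the alternatives and 32 in each library alone, and no member was apart between libraries under any of the 5 alternatives. The median ratio of the members ranged from -0.10 to -0.04. No sign of a member's ratio changed with DESeq2 size factors or with library totals alone, which put the median of all genes at 0.05, and 2 signs changed in the second quantification. Ratios use both libraries, so none can be given without either. The median retained-intron share was 16.7% to 24.9% in the libraries alone and 14.8% as a share of expected counts, an alternative chosen after seeing the data. The log2 difference of Atp6v0d1 and Atp6v0d2 was 3.01 with a pseudocount of 1 and 3.20 to 3.59 in the libraries alone. No paired analysis was possible because the series has 1 group.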

Other observations

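Several members put much of their nuclear signal into transcripts annotated as neither coding nor retained-intron. Atp6v0a1 had 56.3% and 52.8% of its transcript TPM in processed transcripts, which carry no annotated open reading frame, and Atp6v0c had 16.1% and 14.5%, or 41.9% and 45.9% in the second quantification. Gusb had 32.9% in replicate 1 and 20.4% in replicate 2 in Gusb-206, annotated as a target of nonsense-mediated decay, beside 30.6% and 30.3% in the second quantification. Ppt1 had 13.6% and 25.5% in such a transcript, beside 27.2% and 31.5%. For Gusb the difference between the libraries was therefore seen in only 1 of the quantifications.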
